A study of Mus musculus with 23 samples.

Results

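Distal regions of open chromatin that microglia held after saline and lost after lipopolysaccharide (LPS) numbered 564, of 71467 regions merged from the peak lists of 23 ATAC-seq libraries. ATAC-seq cuts DNA where it is free of nucleosomes, and a peak marks a stretch that was cut more often than its surroundings. The regions were chosen by the authors' −log10 p of each peak: all lists were brought to 1 equal length, just under the 33939 peaks of the shortest, keeping the best. A library counted as open at a region when a peak of its shortened list overlapped it. A region was lost when at least 9 of the 11 saline libraries and at most 3 of the 12 LPS libraries were open there, with no end of a protein-coding gene within 1 kb. The rule thus used LPS against saline in all libraries, and every difference between LPS and saline below is a description of the chosen regions, without a test. Of the 13767 distal regions open in at least 9 saline libraries the rule took 4.1% (1.01% of all 55798 distal regions), and of 9838 regions at gene ends it would have taken 57 (0.579%). Just inside the rule lay 73 regions open in 9 saline and 3 LPS libraries, and just outside it 204 with at least 9 saline and 4 LPS libraries and 364 with 8 saline and at most 3 LPS libraries. Regions called gained with LPS below were distal ones open in at most 2 saline and at least 9 LPS libraries.

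Striatal microglia of male mice, 8 to 10 weeks old, were sorted as live, CD11b+, CD45-low and P2RY12+ cells. The 4 groups were control offspring after saline (CON_SAL, 5 libraries) or LPS (CON_LPS, 7 libraries), and offspring of dams with maternal immune activation after saline (MIA_SAL, 6 libraries) or LPS (MIA_LPS, 5 libraries). LPS was given into the peritoneum, 4500 endotoxin units for each gram of weight, and cells were taken 18 hours after either injection. The agent that activated the dams, the mouse strain and whether each library was a separate animal are not stated in the sources at hand, so p-values measure only the spread between these libraries.

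Distal regions of open chromatin are often enhancers, stretches bound by transcription factors that act on genes at a distance. Microglia, the resident macrophages of the brain, are known to keep their identity through enhancers bound by PU.1, MEF2 and SMAD factors, the last downstream of transforming growth factor beta (TGF-beta). LPS, from the wall of Gram-negative bacteria, binds TLR4 and turns on NF-kB and interferon genes in macrophages.

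Sequence for the regions themselves was not used here, but 9 of the 542 lost regions on chromosomes covered by the RefSeq promoter table (GRCm38.p6, 250 bases before to 50 after a start) overlapped a listed promoter, 1.66% against 10.4% of the other distal regions open in at least 9 saline libraries and 1.68% of distal regions gained with LPS. Of the 11 listed promoter windows at these regions, 5 are shown as examples of the kinds of gene: a transcription factor of blood and immune cells, a lens crystallin, a membrane protein and non-coding RNAs. Capitals mark matches, on either strand, to the motif strings searched. A listed promoter window of Ikzf1, which encodes the lymphoid and myeloid factor Ikaros, lies at chr11:11689927-11690226 on the plus strand. It has 239 of its bases in the lost region, which lies in the gene body, 5026 bp from an end. A listed window of Cryba4, a lens crystallin gene next to Crybb1, lies at chr5:112252469-112252768 on the minus strand. The rule left out regions within 1 kb of a protein-coding gene end, so neither window is at its gene's outer end. A promoter of Tmem150c, a membrane protein gene, lies at chr5:100159374-100159673 on the minus strand, wholly inside its region. The promoter of the non-coding RNA Gm29846, within Aldh3b1, lies at chr19:3923600-3923899 on the plus strand, and that of the non-coding RNA Lncpint at chr6:31218425-31218724 on the minus strand.
Ikzf1: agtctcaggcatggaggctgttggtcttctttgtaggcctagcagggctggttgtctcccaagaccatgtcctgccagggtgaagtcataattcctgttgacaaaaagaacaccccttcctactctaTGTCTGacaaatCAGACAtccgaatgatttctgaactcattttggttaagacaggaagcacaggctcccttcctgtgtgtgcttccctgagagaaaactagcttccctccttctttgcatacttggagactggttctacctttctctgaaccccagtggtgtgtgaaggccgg
Cryba4: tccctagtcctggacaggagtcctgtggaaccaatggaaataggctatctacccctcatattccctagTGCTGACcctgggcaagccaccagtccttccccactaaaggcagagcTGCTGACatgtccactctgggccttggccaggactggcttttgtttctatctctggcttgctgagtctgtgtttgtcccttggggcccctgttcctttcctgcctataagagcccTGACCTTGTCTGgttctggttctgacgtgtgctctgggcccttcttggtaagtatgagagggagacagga
Tmem150c: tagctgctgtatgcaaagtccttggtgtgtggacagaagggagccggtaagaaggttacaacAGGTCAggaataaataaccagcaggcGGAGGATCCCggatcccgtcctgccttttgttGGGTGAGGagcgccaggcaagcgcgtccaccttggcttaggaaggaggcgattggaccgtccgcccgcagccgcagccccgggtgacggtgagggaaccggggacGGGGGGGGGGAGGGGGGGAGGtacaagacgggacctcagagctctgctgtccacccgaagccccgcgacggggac
Gm29846: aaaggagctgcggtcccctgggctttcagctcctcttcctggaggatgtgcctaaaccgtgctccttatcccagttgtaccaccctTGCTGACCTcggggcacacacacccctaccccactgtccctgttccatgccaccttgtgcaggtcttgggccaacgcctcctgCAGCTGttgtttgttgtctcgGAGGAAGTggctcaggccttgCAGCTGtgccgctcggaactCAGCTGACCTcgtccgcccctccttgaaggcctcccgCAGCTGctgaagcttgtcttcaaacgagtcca
Lncpint: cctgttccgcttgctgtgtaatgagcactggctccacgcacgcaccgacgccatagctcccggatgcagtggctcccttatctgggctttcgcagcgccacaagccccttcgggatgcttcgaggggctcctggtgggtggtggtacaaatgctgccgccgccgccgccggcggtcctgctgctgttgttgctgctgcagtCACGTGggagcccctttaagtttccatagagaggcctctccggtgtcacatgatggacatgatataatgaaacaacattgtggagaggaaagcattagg

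In these windows the SMAD pair string CAGACA, held by 20.8% of all 32619 promoter windows, matched in Ikzf1 and Cryba4. The MAF string TGCTGAC (4.71% of all windows) matched in Cryba4 and Gm29846, and the nuclear receptor string TGACCT (16.2%) in those and in Tmem150c. Gm29846 also held the PU.1 string GAGGAAGT (3.22%), which contains the ETS core GGAAGT (23.9%), and the E-box CAGCTG (16.4%). Lncpint held the E-box CACGTG (7.20%), and Tmem150c the KLF/SP string CCNCNCCC (49.8%) and the loose NF-kB string (4.62%). All 23 strings were searched on both strands. A match says only that the letters are there. The Ikzf1 region was open in 3 of 5 CON_SAL, 6 of 6 MIA_SAL, 1 of 7 CON_LPS and 1 of 5 MIA_LPS libraries. The Cryba4 region was open in 4, 5, 0 and 0 libraries of the same groups, that of Tmem150c in 4, 6, 2 and 1, that of Gm29846 in 4, 5, 1 and 0, and that of Lncpint in 5, 4, 2 and 1.

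Among the 564 regions, the CON_SAL libraries were open at 519, 528, 416, 541 and 544, and the MIA_SAL libraries at between 337 and 553 with a median of 534.5. The CON_LPS libraries were open at between 58 and 131 with a median of 76, and the MIA_LPS libraries at 64, 80, 93, 70 and 67. The groups of a treatment overlapped, and no LPS library came near the lowest saline library, a separation that the rule itself builds in. Means were 509.6 ± 53.3 (SD, n = 5) in CON_SAL, 492.0 ± 85.0 (n = 6) in MIA_SAL, 82.7 ± 22.9 (n = 7) in CON_LPS and 74.8 ± 11.8 (n = 5) in MIA_LPS. All 11 saline and no LPS libraries were open at 21 regions, and no LPS library at 110. At 168 regions the LPS libraries still open were all CON_LPS, at 81 all MIA_LPS, and at 205 there were some of each. CON_LPS is the larger group (7 libraries against 5), and the part of group size in these counts was not tested. On average a CON_LPS library was open at 14.7% of the 564 regions and a MIA_LPS library at 13.3%.

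**Figure D1:**
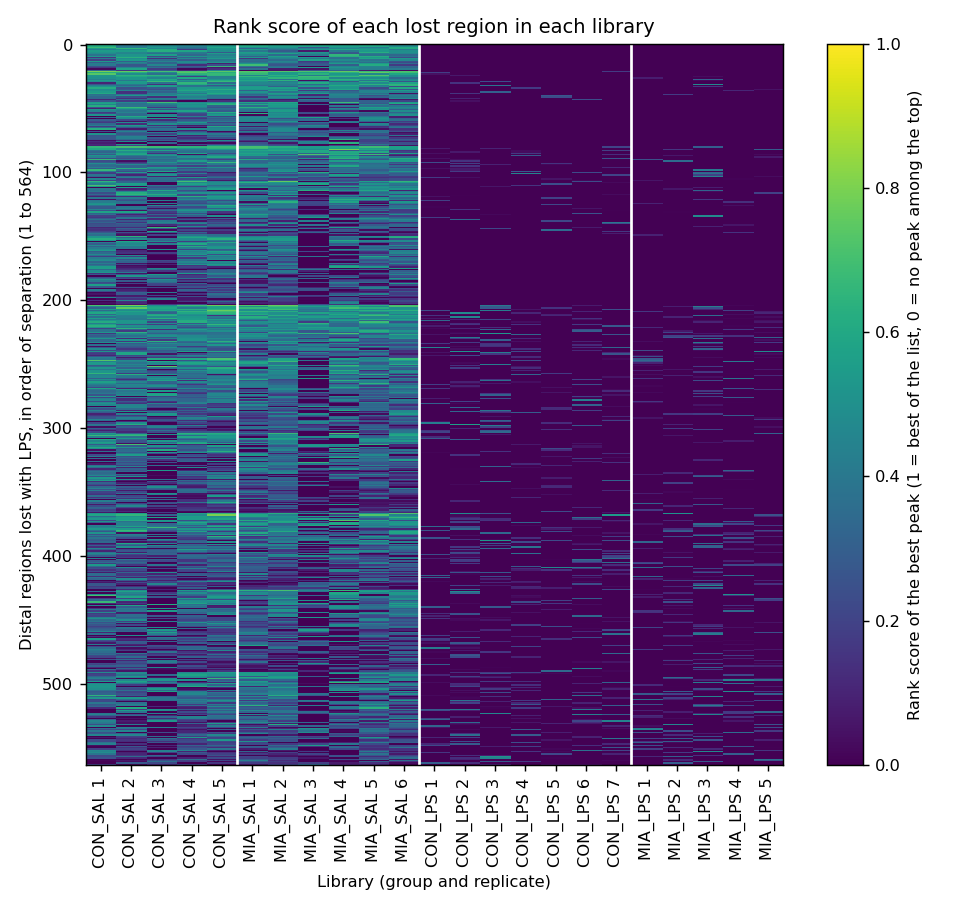
Each line is 1 of the 564 lost regions, ordered from the widest separation at the top, and each column is a library; colour gives the rank score, from 1 for the best peak of a list to 0 for no peak in the shortened list. The 11 saline columns are filled over most lines, the columns of CON_SAL 3, MIA_SAL 3 and MIA_SAL 4 less so, and the 12 LPS columns hold 58 to 131 open regions each.

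The 3 lowest saline libraries were CON_SAL 3 (416 regions), MIA_SAL 3 (337) and MIA_SAL 4 (448). The identity codes in their labels carry the numbers 2, 3 and 3, and 3 LPS libraries, CON_LPS 3, CON_LPS 7 and MIA_LPS 3, share numbers from 1 to 3. What the number stands for is not given. Within these 6 libraries, all used by the rule, the regions open were 337 to 448 after saline and 80 to 93 after LPS. Of the 23 libraries, 17 share an identity number with another, always of the same prenatal group. Sorted cells ranged from 10560 (CON_SAL 3) to 25000 in a library. MIA_SAL 3 had 12617, and MIA_SAL 4, CON_LPS 3, CON_LPS 7 and MIA_LPS 3 had 12500 each. The saline libraries CON_SAL 2, MIA_SAL 1 and MIA_SAL 5 also had 12500 and were open at 528, 530 and 545 regions. The part of cell number was not tested.

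Loss under this rule covered falls down a list as well as the end of a peak. Taken over all pairs of a lost region and an LPS library (6768), 14.1% were open, 29.2% had a deposited peak that ranked below the shortened list, and 56.7% had none. Over the 6204 pairs with saline libraries these shares were 88.7%, 2.39% and 8.96%. Weaker peaks made up 44.2% of the MIA_LPS pairs and 18.5% of the CON_LPS pairs, and the MIA_LPS lists were longer, with 51328 ± 11958 peaks (SD, n = 5) against 42446 ± 4522 (n = 7). With every deposited peak counted, the MIA_LPS libraries had a peak at 252, 443, 94, 323 and 508 of the 564 regions. The CON_LPS libraries had one at 99 to 360 (median 184), against 439 to 563 in CON_SAL and 341 to 564 in MIA_SAL. MIA_LPS 5, with 65625 peaks, kept some peak at 508 regions, and MIA_LPS 3, with 33939, at 94. The part of list length in this difference between CON_LPS and MIA_LPS was not tested.

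**Figure D2:**
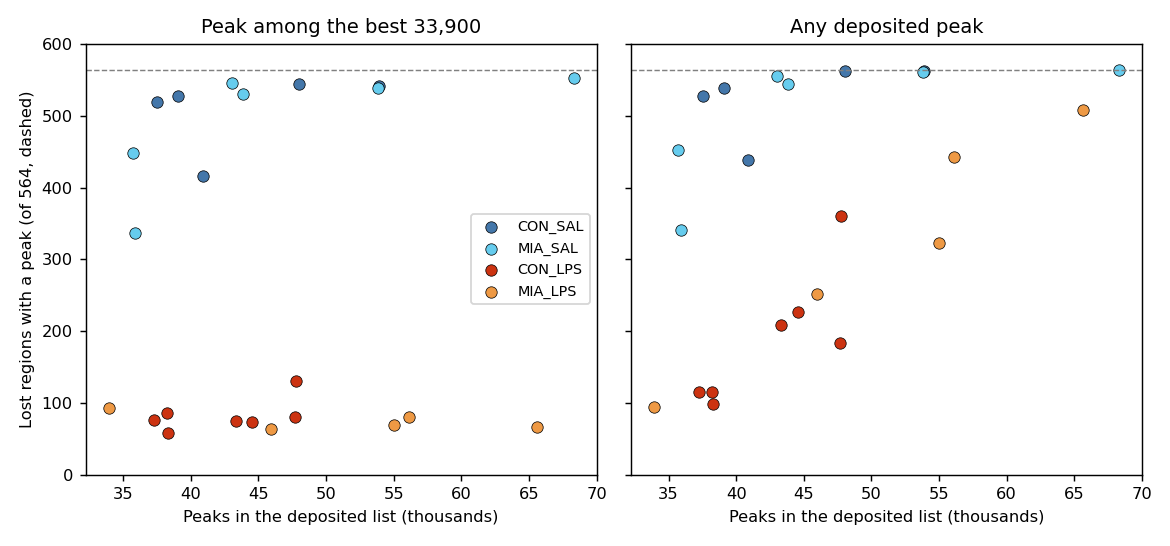
Number of lost regions with a peak in each of the 23 libraries (vertical) against the number of peaks in its deposited list (horizontal, in units of 1000 peaks), for the shortened lists (left) and for all deposited peaks (right); the dashed line marks 564. On the left the LPS libraries stay between 58 and 131 at every list length, while on the right they run from 94 to 508 and the longest LPS list holds the most.

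In the full lists, 13 regions had no peak in any LPS library, 130 in at most 3, and 263 in at least 6, with a median of 5 of 12 libraries and a highest of 11. The median fold over local background, the authors' value at the summit, was 5.59 over saline and 4.31 over LPS libraries for the 551 regions with an LPS peak, and it was lower after LPS at 516 of them. Since fold differs between libraries, it was also divided by the median of each shortened list. At the 263 regions with 6 or more LPS peaks this relative fold was 0.879 after saline and 0.644 after LPS, a median ratio of 0.744. Another 13166 distal regions open in at least 9 saline libraries also had 6 or more LPS peaks. There it was 1.061 and 1.024, a median ratio of 0.961, and lower after LPS at 61.3%. The 263 regions were chosen because most of their LPS peaks fell below the shortened list. A lower fold after LPS is thus built in for them, and their ratio describes only its size. In these sorted but bulk cells, fewer cells with an open region and less cutting per cell cannot be told apart.

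The region with the widest separation lay at chr6:87728124-87728457, 2133 bp from an end of Efcc1, a gene for a protein with EF-hand and coiled-coil domains. Its fold was 7.02, 8.23, 4.25, 7.88 and 8.11 in the CON_SAL libraries and 6.65 to 12.55 (median 8.55) in MIA_SAL. A deposited peak remained in CON_LPS 7 (3.77), MIA_LPS 4 (3.44) and MIA_LPS 5 (5.39), at ranks 35233, 49794 and 44359, and the other 9 LPS libraries had none. Thus only CON_SAL 3 lay within the range of the LPS peaks that remained.

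The next 2 regions lay in genes tied to the microglial state. Golm1 encodes a Golgi membrane protein and is a homeostatic microglia marker; its region (chr13:59672226-59672598, in the gene body) had a fold of 5.19, 4.25, 3.98, 5.13 and 4.57 in CON_SAL and 4.52 to 7.57 (median 5.35) in MIA_SAL. After LPS, peaks were deposited only in CON_LPS 3 (3.05) and MIA_LPS 1 (3.17). Both lay below the 11 saline values. Golm1 also had a region gained with LPS in its body or within 20 kb.

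Tgfbr2 encodes the receptor subunit that binds TGF-beta, and the region in its body at chr9:116122855-116123514, 35160 bp from an end, was open in all saline and no LPS libraries. Its fold was 6.30, 5.18, 4.56, 5.86 and 5.89 in CON_SAL and 3.79 to 9.83 (median 5.52) in MIA_SAL. Weak peaks were deposited in CON_LPS 1 (3.63), MIA_LPS 2 (3.03) and MIA_LPS 5 (3.63), at ranks of 37815 to 56113. The LPS and saline values did not overlap. A second Tgfbr2 region at chr9:116163963-116164282, 11081 bp from an end, sat near the limit of the rule, open in 3 of 5 CON_SAL, 6 of 6 MIA_SAL, 2 of 7 CON_LPS and 1 of 5 MIA_LPS libraries, with a median fold of 3.76 after saline and 3.69 over 6 LPS libraries with a peak. Between genes, nearest to Faap20 and close to Ski, which encodes a repressor of SMAD factors, a region was open in 9 saline and 2 LPS libraries. Of the 22 genes of the TGF-beta list 2 thus had a lost region within 20 kb or in the body, and Tgfb1, Tgfbr1 and Smad3 were among the 20 with none. Lost were 3 of the 54 regions open in at least 9 saline libraries at the list's genes (5.56%), against 3.69% at all protein-coding genes. At that background share 1.99 lost regions would stand there, so the count was near it. A gained region lay at 3 of the 22 genes, neither Tgfbr2 nor Ski among them. Pmepa1, a TGF-beta target gene that was not on the list and whose product restrains SMAD signalling, had the nearest end, 58909 bp away, to a region open in all saline libraries and in CON_LPS 2 alone of the LPS libraries. Its fold was 4.64, 6.06, 5.14, 5.96 and 5.97 in CON_SAL, 4.09 to 9.67 (median 5.20) in MIA_SAL, and 3.97, 2.63 and 3.20 in the 3 LPS libraries with a peak.

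Other regions open in all 11 saline and no LPS libraries lay near genes of several kinds. Il33 encodes an alarmin cytokine of the IL-1 family, and the region in its body was open at a median fold of 6.77 after saline (4.32 to 14.54); 6 LPS libraries kept a weaker peak with a median of 4.71. A region between genes near Fer, a tyrosine kinase gene, had a median of 6.31 after saline. A region 22565 bp from an end of St6gal1, which adds sialic acid to glycoproteins, had 6.80. The region nearest to Socs6, a suppressor of cytokine signalling, had 7.13 and 2 LPS libraries with a peak (3.51 and 4.03). A region with no protein-coding gene end within 100 kb, 205183 bp from Qk, had a median fold of 8.38 and a weaker peak in 5 LPS libraries. The strongest of the 25 by rank lay between genes 76582 bp from an end of 1700025G04Rik, with saline ranks of 7017 to 10860 and a fold of 6.91 to 16.29; CON_LPS 7 alone of the LPS libraries was open there, at rank 27981. Near Kcnk2, a potassium channel gene, the saline fold was 5.39 to 14.16 and CON_LPS 1 alone was open (5.39).

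**Figure D3:**
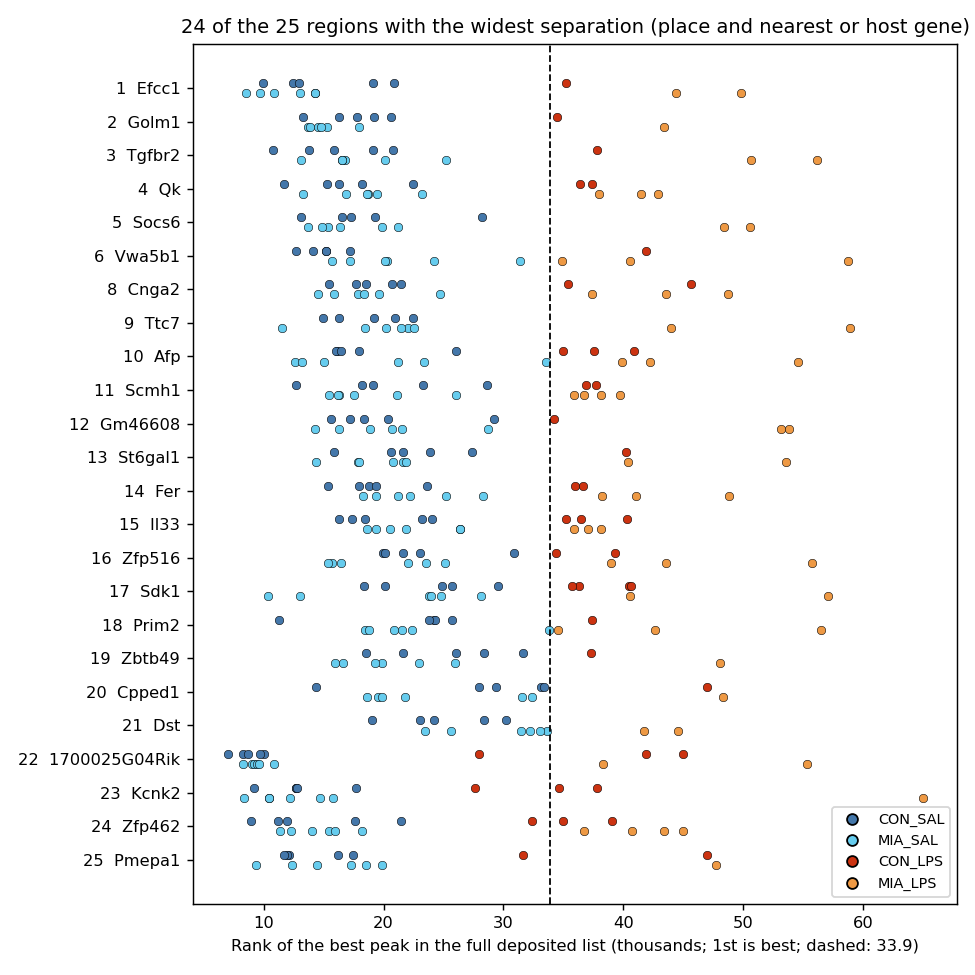
Rank of the best deposited peak (horizontal, in units of 1000 ranks, best to the left) at 24 of the 25 regions with the widest separation (vertical, with the gene each is named by; the Qk and Zfp462 regions lie over 100 kb from that gene), 1 point a library with a peak, coloured by group; the dashed line marks the length of the shortened lists. Every saline point lies left of the line, and the LPS points lie right of it apart from 1 in each of the lowest 4 regions; LPS libraries with no peak have no point.

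Lost regions were looked for at 327 genes in 19 lists, in the gene body or within 20 kb. Over all 21631 protein-coding genes, 529 (2.45%) had a lost region there and 1355 (6.26%) a region gained with LPS, and 3.69% of the regions open in at least 9 saline libraries at such genes were lost. These shares are the background for the lists. Only 8218 of all protein-coding genes had a distal region open in at least 9 saline libraries, without which none can be lost. A share of genes thus depends on how many hold such a region. No list was tested.

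Of 23 homeostatic microglia genes 4 had lost regions, among them Golm1, Gpr34 and Cst3, and 6 of the 65 regions open in at least 9 saline libraries at the list's genes were lost (9.23%). Gpr34 encodes a lysophosphatidylserine receptor, and both of its regions lay on chromosome X inside the body of the neighbouring gene Cask, 3565 and 15404 bp from Gpr34. The nearer one was open in 4 of 5 CON_SAL and 5 of 6 MIA_SAL libraries and had a single deposited LPS peak, in MIA_LPS (fold 4.02, rank 59725). The farther one had a saline median fold of 8.67 and peaks in 4 LPS libraries, median 4.41. Cst3, the gene of the protease inhibitor cystatin C, had 2 regions between genes, 13415 and 9291 bp from its nearest end. The first had no peak in any CON_LPS library and one in all 5 MIA_LPS libraries, of which 3 were open. At the second, the saline median fold was 8.98 (5.55 to 18.23), against 4.85 over 6 LPS libraries. P2ry12, Tmem119, Cx3cr1, Sall1 and Csf1r had no lost region. Of the 23 genes 3 had a gained region, Golm1 among them.

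Among 20 purinergic and G-protein coupled receptor genes, 3 had lost regions, Gpr34, Cmklr1 and Rgs10. Lost were 4 of the 55 regions open in at least 9 saline libraries at the list's genes (7.27%), where the background share would give 2.03. Cmklr1 encodes the chemerin receptor, and its region (chr5:113619205-113619525, in the body) was open in all 11 saline libraries, 0 of 7 CON_LPS and 2 of 5 MIA_LPS libraries. Its fold was 4.37, 4.57, 3.15, 4.96 and 4.72 in CON_SAL and 4.09 to 8.27 (median 4.59) in MIA_SAL. A peak of 4.15, 3.84, 4.66, 4.35 and 5.76 stood in the 5 MIA_LPS libraries, and in CON_LPS only in replicates 1 (3.57) and 2 (3.33). Rgs10 encodes a regulator of G-protein signalling, and its region between genes was open in 9 saline and 3 LPS libraries. A gained region lay at 4 of the 20 genes, Cmklr1 and Rgs10 among them.

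Transcription factor genes of myeloid cells and microglia had 7 lost regions at 5 of 25 genes, 7.45% of their 94 regions open in at least 9 saline libraries. Foxp1, a forkhead factor gene, had a region open in 10 saline and no LPS libraries, with a median fold of 5.43 after saline. Mef2d, of the MEF2 family, had 2 regions in its body, at chr3:88156448-88156970 and chr3:88157817-88158179. The first was open in 10 saline, 0 CON_LPS and 3 MIA_LPS libraries, and the second in 10 saline, 2 CON_LPS and 0 MIA_LPS libraries. Ikzf1 had 2 regions in its body, that with the listed promoter window shown above and another at chr11:11691742-11692055, open in 9 saline libraries and 1 CON_LPS library. Elf1 and Ets1, of the ETS family, each had a region in the gene body that was open in 3 LPS libraries. At the same list, 10 genes had a region gained with LPS, and 4 had both a lost and a gained region.

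Phosphoinositide and calcium signalling genes had lost regions at 6 of 20 genes, 7 of 95 regions (7.37%). Pip4k2a, which encodes a phosphoinositide kinase, had 2 in its body, with saline medians of 4.73 and 5.94 in fold. After LPS, 6 and 7 libraries had a peak there, with medians of 3.65 and 4.42. The second was open in 3 of 5 MIA_LPS libraries, and its highest LPS fold, 10.31, passed the saline highest of 9.41. Pik3r1 encodes the regulatory subunit of PI 3-kinase, and its region was open in 4 of 5 CON_SAL, 5 of 6 MIA_SAL and no LPS libraries. Prkce and Prkca encode protein kinases C, and both regions lay in the gene bodies, 174911 and 195203 bp from an end. The Prkce region was open in 9 saline and no LPS libraries. That of Prkca was open in 9 saline and 3 LPS libraries, and 8 LPS libraries had a peak. Its highest fold was 8.89 after saline and 9.77 after LPS, with medians of 6.23 and 4.28. Dgkd (a diacylglycerol kinase) had a region open in 10 saline and 1 LPS library, and that of Itpr1, an inositol trisphosphate receptor gene, lay between genes nearer to Sumf1. A gained region lay at 4 of the 20 genes, Pip4k2a among them.

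Small GTPase, actin and adhesion genes had lost regions at 5 of 30 genes, 3.95% of their 152 regions. Arhgap24, which encodes a GTPase-activating protein for Rac, had a region 147520 bp inside its body with a median fold of 7.80 after saline (3.70 to 14.00), and it was open in 1 LPS library. Arhgap26 and Itgb5, the integrin beta 5 gene, had regions open in all 11 saline and 3 LPS libraries. Apbb1ip, which links Ras proteins to integrin activation, had 2 regions. Gained regions lay at 11 of the 30 genes, more than the 5 with lost regions, and Apbb1ip and Arhgap24 had both.

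No gene had more than 3 lost regions, and 7 had 3, namely Capzb, Cpped1, Pard3b, Sdk1, Sh2b3, Sipa1l1 and Sipa1l2. None of the 7 had a region gained with LPS. Of all 529 genes with a lost region 62 (11.7%) had a gained one as well, against 6.26% of all protein-coding genes. These 2 shares are not of like genes. A lost region needs a distal region open in at least 9 saline libraries, which only 8218 of the 21631 genes had. None among 7 genes does not set them apart from these shares. Sipa1l1 and Sipa1l2 are paralogues that encode GTPase-activating proteins for Rap. The 3 Sipa1l1 regions were open in all 11 saline libraries and in 1, 1 and 3 LPS libraries, with saline medians of 5.80, 6.59 and 6.35 in fold. At Sipa1l2 the 3 regions were open in 10, 9 and 9 saline libraries. Cpped1, a phosphatase gene, lost 3 of its 4 regions that were open in at least 9 saline libraries, Pard3b, a cell polarity gene, 3 of 5, and Sh2b3, which encodes an adaptor that restrains cytokine receptor signalling, 3 of 6. Capzb, the gene of an actin capping subunit, lost 3 of 17. A region counted at Capzb lay in the body of Slc66a1, and a region counted at Sh2b3 in that of Atxn2. Over libraries with a peak, the Pard3b median folds were 6.79, 6.36 and 4.93 after saline and 4.6, 6.18 and 4.97 after LPS. At Sh2b3 they were 3.63, 2.77 and 3.37, against 3.04, 2.68 and 2.92, and 10, 9 and 5 LPS libraries had a peak. At Capzb, Cpped1, Sdk1, Sipa1l1 and Sipa1l2 every median was lower after LPS.

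No gene of the NF-kB and acute inflammatory (30 genes, 43 regions open in at least 9 saline libraries), interferon-stimulated (18 genes, 8 regions) or complement and phagocytosis receptor (20 genes, 35 regions) lists had a lost region, while 9, 3 and 3 of their genes had a gained region. These lists hold few open regions, and at the background share 1.59, 0.295 and 1.29 lost regions would stand at them. The lists of astrocyte, oligodendrocyte, endothelial and mural, border-associated macrophage, monocyte and neutrophil, and lymphocyte genes had none either. Among 16 disease-associated microglia genes, Ctsd, the cathepsin D gene, had a region that was open in 9 saline libraries and had no deposited peak in any LPS library. It was 1 of the 25 regions open in at least 9 saline libraries at that list (4%). Of these genes 5 had a gained region, Ctsd among them. The neuron list had a region in Rbfox3, 1 of its 5 regions open in at least 9 saline libraries (20%). Rbfox3, alone on that list, also had a gained region. The housekeeping list had regions near Gapdh, in the body of Iffo1, and near Rplp0, in the body of Gcn1, which were 2 of its 18 (11.1%), a larger share than at the homeostatic microglia genes.

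**Figure D4:**
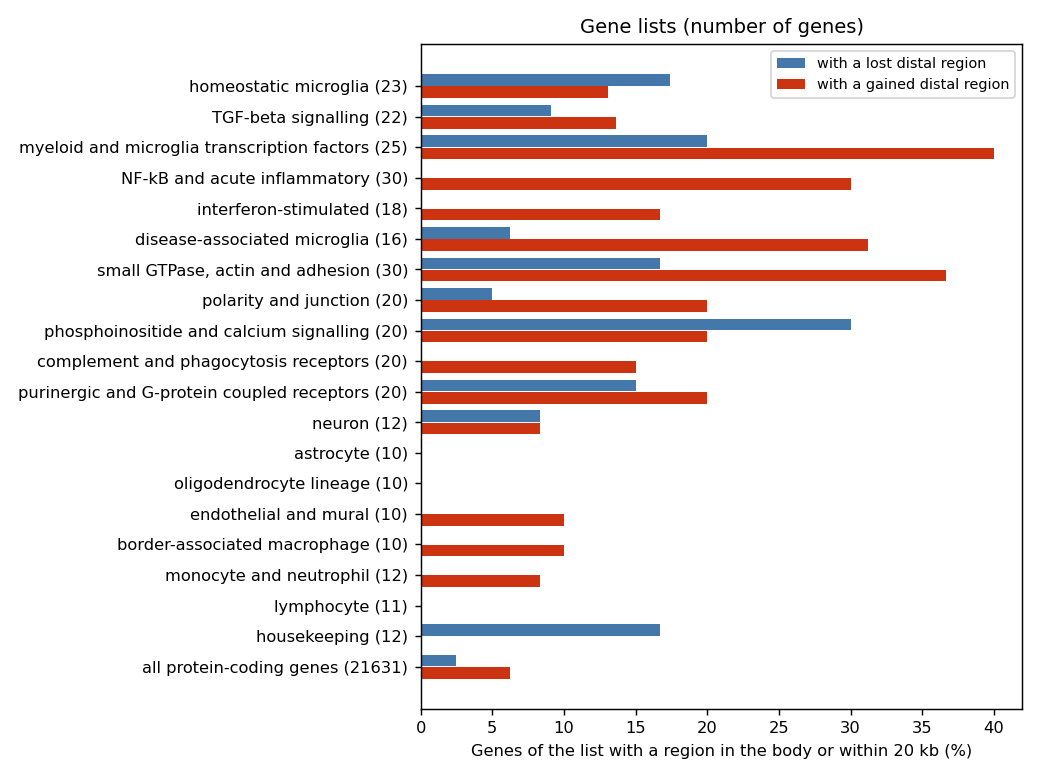
Share of the genes of each list (vertical, number of genes in brackets) with a lost (blue) or a gained (red) distal region in the body or within 20 kb, in percent. Lost regions reach 30% of the phosphoinositide and calcium signalling genes against 2.45% of all protein-coding genes, but 7.37% of the regions open in at least 9 saline libraries at those genes against 3.69%; the NF-kB and interferon-stimulated lists, at 0, hold 43 and 8 such regions.

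Lost regions were as often in gene bodies as other distal regions, and their median width and distance to a gene end differed. The median width was 408.5 bp (quartiles 316 and 533.25), against 561 bp for the other distal regions open in at least 9 saline libraries, 429 bp for gained regions and 654 bp for distal regions open in all 23 libraries. The median distance to the nearest end of a protein-coding gene was 26064.5 bp, against 14860 bp for the others and 17288.5 bp for gained regions, and 86 (15.2%) lay over 100 kb away, against 7.80%. In a gene body lay 333 (59.0%), against 58.8%. Gene bodies of long non-coding RNAs covered 65 (11.5%), against 14.7%. Another lost region lay within 50 kb of 79 (14.0%), and a lost region lay within 50 kb of 7.40% of the others. A gained region lay within 50 kb of 54 (9.57%), against 20.7% of the others. Lost regions made up from 3.12% (chromosome 7) to 6.63% (chromosome X) of the distal regions open in at least 9 saline libraries on a chromosome.

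The lost regions also ranked low before LPS. The median saline rank score, 1 for the best peak and 0 for none in the shortened list, was 0.28 against 0.52 for the others. The rule picked 21.8% of the 473 regions with a mean saline score from 0.1 to 0.2 and 12.9% of 1829 from 0.2 to 0.3. From 0.5 to 0.6 it picked 17 of 2131 (0.798%), and above 0.8 it picked 0 of 969 and 0 of 417 in the last bins. Height, width and the rule are not independent, since a region low in the list needs a smaller fall to leave it.

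**Figure D5:**
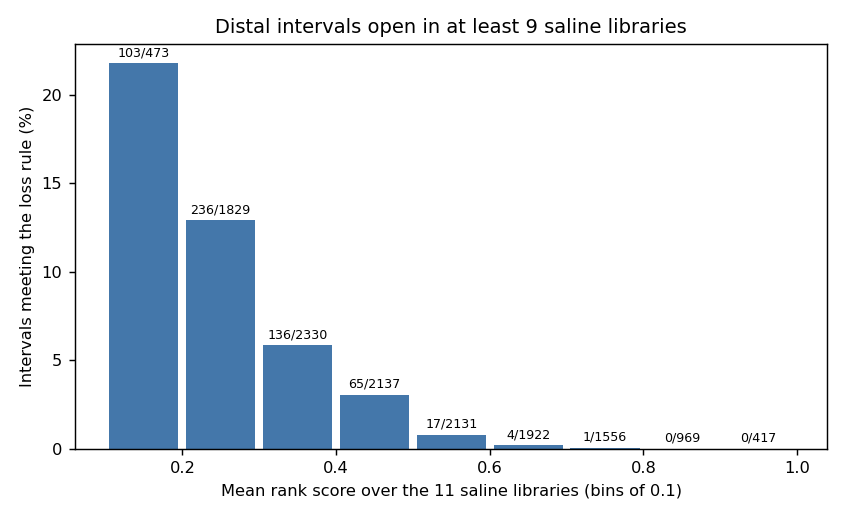
Share of distal regions open in at least 9 saline libraries that the rule counted as lost (vertical, %), by mean rank score over the 11 saline libraries (horizontal, bins of 0.1); numbers over the bars are lost regions of all regions. The share falls from 21.8% in the lowest bin drawn to 0 above 0.8; a bin below 0.1 with 3 regions is not drawn.

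Maternal immune activation was compared with control within each treatment, a contrast that the rule did not use directly, since it pooled both kinds of offspring. The rule does limit it: with at most 2 saline libraries closed and at most 3 LPS libraries open, a region open in a single kind of offspring could not be chosen, so few calls among the lost regions are partly built in. Rank scores of 44473 regions open in at least 3 libraries were fitted with limma on 4 group means with a shared spread, and p-values were adjusted by Benjamini-Hochberg over all of them. After saline, none of the regions tested was called (0%), and so none of the 564 lost regions (smallest adjusted p 0.25). Unadjusted p-values were below 0.05 at 93 lost regions (16.5%), 34 of them higher in MIA, against 5.10% of all regions tested. With the saline libraries fitted alone the shares were 7.62% (43 lost regions) and 4.34%. The rule keeps the LPS scores of lost regions low (median 0.0174), so the spread shared over 4 groups can be too small for their saline scores. The difference of the LPS effect, given below, was fitted with the same shared spread. After LPS, 20 regions in all were called (0.045%), none of them lost regions (2 or 0.355% below an unadjusted 0.05, against 5.79% of all, smallest adjusted p 0.827). The 20 became 0 with the LPS libraries fitted alone and 7 with the replicate number as a block, and ran from 9 without CON_LPS 3 to 70 without MIA_LPS 2. The difference of the LPS effect between MIA and CON was called at 1 region in all (0.00225%), not a lost region (46 or 8.16% below an unadjusted 0.05, against 4.61% of all, smallest adjusted p 0.79). With the identity number as a random block, chosen after seeing the data, 0, 15 and 1 regions in all and no lost region were called in the 3 contrasts. The median difference between MIA and CON over the lost regions was −0.01 in rank score after saline and 0 after LPS. Fisher's exact test of open against closed libraries says nothing here, since under the rule a lost region can reach no p below 0.1818 after saline or 0.04545 after LPS. A missing call does not show that the groups were alike.

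Some calls turned on the list length or on a library. With all deposited peaks ranked, 395 of 63019 regions (0.627%) were called after LPS by limma, all higher in MIA, and 2 of the lost regions were among them, named here after their values were seen. After saline 0.00159% and for the difference of the LPS effect 0.0143% of these regions were called, with 0 lost regions in each. The Cmklr1 region differed by 0.34 in rank score (limma adjusted p = 0.00874, a peak in 5 of 5 MIA_LPS and 2 of 7 CON_LPS libraries). A region 7052 bp from Apobec1, the gene of an RNA-editing cytidine deaminase, also differed by 0.34 (adjusted p = 0.037, 5 of 5 and 1 of 7 libraries). The MIA_LPS lists were the longer ones, as given above, and the part of that in these calls was not tested. The Cmklr1 peaks ranked from 19053 to 36167 in the 5 MIA_LPS libraries, and 38164 and 39057 in the 2 CON_LPS libraries with a peak. With the shortened lists, limma called no lost region after LPS (smallest adjusted p 0.827). After saline, limma called 4 lost regions without CON_SAL 2 (of 13 calls in all, 0.0292% of regions), 2 without MIA_SAL 6 (of 5, 0.0112%) and 1 without CON_SAL 5 (of 3, 0.00675%). The first 4 were Dll4 and Cops3 (lower in MIA), Frmd4b and a region 125162 bp from Tmem121 (higher in MIA).

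The labelled cell type was checked at gene ends. In every library 9 of 10 microglia marker genes had a peak within 1 kb of an end, Gpr34 being without one in all. Of 12 monocyte and neutrophil genes, none had a peak in a saline library and 0 to 2 did in LPS libraries (median 1 in CON_LPS and in MIA_LPS). Those with a peak in some LPS library were S100a8, Camp and Cxcr2, while Ccr2, Ly6c2 and S100a9 were among those with none. Of 10 border-associated macrophage genes, 0 to 2 had a peak in saline and 0 to 4 in LPS libraries. Medians were 2 in CON_SAL, 1 in MIA_SAL, 3 in CON_LPS and 4 in MIA_LPS. Mrc1, F13a1, Siglec1, Cbr2, Ms4a7 and Clec12a had a peak in some library, and Cd163, Lyve1, Pf4 and Cd38 in none. Neuron genes with a peak numbered 2 to 6 of 12, astrocyte genes 2 to 5 of 10, oligodendrocyte genes 2 to 3 of 10, endothelial and mural genes 1 to 4 of 10 and lymphocyte genes 2 to 4 of 11. The part of other cell types in the lost regions was not tested.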

How the data were processed

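ATAC-seq peak lists of 23 libraries were analysed, 1 list a library. The submitters' processing notes name cutadapt, Bowtie2, Picard, SAMtools, MACS2 and DiffBind and the builds mm10 and GRCm38; their versions and settings are not stated in the sources at hand. In the deposited lists, the authors' columns were read from their values as the fold over local background at the summit (a ratio) and the −log10 of the p and q values of each peak. No count table was used, so depth in reads is unknown and no interval for counting error is given.

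Each list was cut to its best peaks by −log10 p, to 1 length just under that of the shortest, on chromosomes 1 to 19 and X, and overlapping peaks of all lists were merged. A rank score of 1 (best) down to 0 (no peak) was taken for each region and library. MIA was compared with CON in limma 3.58.1 (R 4.3.3) with Benjamini-Hochberg adjustment and a call at an adjusted p under 0.05. The fit was also run on simulated normal scores with the same spread in all groups. The scores here are bounded and differ in spread between groups, so that run does not vouch for the fit at the lost regions. Counts and figures used Python 3.11.15, pandas 2.3.3, numpy 2.4.6, scipy 1.17.1 and matplotlib 3.10.9. Gene positions, promoters and motif windows came from RefSeq tables for GRCm38.p6; 332 of 335 list entries matched by symbol. The gene table gives no strand, exons or introns, so only bodies and ends were used. A planned search for motif strings inside the regions needs a genome and was not run.

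Named were the 25 regions with the largest difference between the percent of saline and LPS libraries open (ties by saline rank score), regions at genes of the lists, genes with 3 or more lost regions, and regions called by a contrast; 2 of these regions are not reported here. The lost regions, lists and rules were chosen with earlier results of these data known. Replicate numbers of the labels did not pair the libraries. Identity numbers, shared by some libraries, were fitted as a random block in an alternative. Alternatives changed the list length, ranking, overlap, windows, gene-end distance, thresholds, score, filter, test and libraries used.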

Additional observations from a re-analysis of the deposited data

Results flagged for a closer look

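In each group of 4 to 10 libraries, a library was noted when its gap to the nearest of the others was large for the range of the group (Dixon's test at its 95% value). Of 16 checks of a group and a measure, 4 were noted, where chance gives about 1 in 20. CON_SAL 3 was open at 416 of the lost regions, far below the other 4 CON_SAL libraries (519 to 544), and had any deposited peak at 439 (the others at 528 to 563). CON_LPS 2 was open at 131, far above the other 6 CON_LPS libraries (58 to 86). MIA_SAL 2, which has the longest list (68298 peaks), had a median fold of 10.44 at its open lost regions, against 4.32 to 6.51 in the other 5 MIA_SAL libraries.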

How the results depend on the processing

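Which regions counted as lost depended on the list length and the rule. In place of 564 there were 351 with lists of 50% of the length (7 overlapped the 564), 284 with all deposited peaks (130), 238 with peaks of −log10 q of at least 5 (200), and 21 when all 11 saline and no LPS libraries had to be open. Ranking by fold gave 454 (284), windows on summits 578 (547) and a 2.5 kb gene-end distance 532. Leaving out each library gave 587 to 811, the most without MIA_SAL replicate 3, and without the 6 libraries with identity numbers 1 to 3, chosen after seeing the data, 1827. There the rule was at most 2 saline libraries closed and at most 3 LPS libraries open among those left, which is looser the fewer are left, so the counts can only rise and the 564 stay in by construction. With all deposited peaks the mean number of lost regions with a peak was 186.9 in CON_LPS and 324.0 in MIA_LPS. All 61 named regions were open in a larger share of saline than LPS libraries with all deposited peaks, by fold ranking and by −log10 q; with lists of 50% of the length 44 were and 17 had equal shares. They were chosen for that direction; their median difference was 82.6 points, 50.0 with all deposited peaks and 18.2 with lists of 50% of the length. For MIA against CON, the lost regions called by limma numbered 2 after LPS with all deposited peaks; after saline they ranged from 0 to 4 on leaving out each library, and without the 6 libraries there was 1, at Foxj3. The calls without CON_SAL 5 and MIA_SAL 6 were at Mtss1, and at Cpped1 and the Tmem121 region. With log2 of fold + 1, lists of 50% of the length, no filter, the libraries of a treatment alone or the identity number as a random block (correlation 0.131) there were 0. With the replicate number as a block 0 lost regions were called in each of the 3 contrasts (98, 1 and 43 below an unadjusted p of 0.05). Same-numbered libraries had a median correlation of 0.0128 (31 pairs, −0.159 to 0.205) and 6 of 22 libraries correlated best with their own number, so the replicate numbers do not show a pairing. Peak lists without reads set the limit here: a region just under the caller's threshold and a closed region look the same.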

Other observations

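Precursors of several microRNAs lay near lost regions. The nearest was Mir7029, 1024 bp from the region in the body of Gcn1 that was open in 11 saline and 2 LPS libraries, and the mature miR-7029-5p (RefSeq, GRCm38.p6, chr5:115580954-115580976, plus strand; capitals mark the seed, bases 2 to 8) is shown for that place. Mir1960 lay 1222 bp from a region near Hadhb, open in 11 saline and 3 LPS libraries. These files hold no measure of either microRNA.
miR-7029-5p: uCUGGACGcucggcugccagcgc
miR-1960: cCAGUGCUguuagaagagggcu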
